A study of Homo sapiens with 4 samples.

Results

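Transcripts of 10 genes encoding Polycomb repressive complex 2 (PRC2) were followed in SUM159, a breast cancer cell line of mesenchymal character without estrogen receptor expression, after RNA interference against SPEN. The 10 were chosen by gene name: EZH1, EZH2, SUZ12, EED, JARID2, RBBP4, RBBP7, MTF2, PHF19 and PHF1. All 10 were found among the 23394 genes of the count table, and all 10 were among the 13915 with enough counts to be tested. The 2 control libraries came from SUM159 cells given DMSO, the solvent. The 2 knockdown libraries came from SUM159 cells given doxycycline, which switches on a small interfering RNA against SHARP, another name of SPEN. Both groups were grown in F12 medium with serum, insulin and hydrocortisone, and the sources used here do not say whether the control cells carry the inducible construct. An effect of doxycycline itself and an effect of the knockdown cannot be told apart. The comparison asks how the transcripts of this silencing complex differ once SPEN, a corepressor of the Notch effector RBPJ that the series treats as an epigenetic scaffold, is lowered.

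PRC2 places methyl groups on lysine 27 of histone H3, and the trimethylated mark (H3K27me3) labels genes kept silent. EZH2 or its paralog EZH1 is the methyltransferase, SUZ12 is the scaffold, EED reads the finished mark and so helps it to spread, and RBBP4 or RBBP7 binds histones. The core joins either a Polycomb-like protein (PHF1, MTF2 or PHF19) or the pair JARID2 and AEBP2, and these partners direct it to unmethylated CpG-rich promoters. EZH2 is the dominant enzyme of dividing cells, is a target of the E2F factors of the cell cycle, and is abundant in many aggressive breast cancers.

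Promoter sequences of the members are shown first because several PRC2 genes are described as E2F targets, and E2F matches were shared by 5 of the 10. RefSeq promoter windows (GRCh38.p14, 250 bases before to 50 after a transcription start) were found for all 10 members, 15 windows in all. This build is not that of the counts, and which start is used in these cells was not measured. The letters TTTGGCGC, TTTCGCGC, TTTGCCGC and TTTCCCGC, treated as 1 E2F motif and searched on both strands, occurred in 5 of the 15 windows and in 3.31% of all 35116 windows. The set of all windows was not matched to the members in base composition, so these shares are no test of enrichment. The 5 matches are printed with their flanks, 5′ to 3′, with the motif in capitals.
EZH1, chr17:42745137-42745166, minus strand: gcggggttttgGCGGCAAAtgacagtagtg
EZH2, chr7:148884272-148884301, minus strand: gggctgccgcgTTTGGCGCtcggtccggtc
SUZ12, chr17:31936807-31936836, plus strand: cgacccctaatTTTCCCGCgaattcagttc
MTF2, chr1:93079277-93079306, plus strand: accggcagtccGCGGGAAAccaaaatggcg
PHF19, chr9:120877322-120877351, minus strand: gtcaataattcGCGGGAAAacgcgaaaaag

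The genes with an E2F match fell on every side of the comparison below: SUZ12 and PHF19 were lower in the knockdown, EZH1 was higher, and EZH2 and MTF2 were not called. The CCAAT box, bound by NF-Y, was in 10 of the 15 windows on either strand (34.6% of all windows), and the 2 windows of RBBP4 overlap and share one. The motif TTTGAA, the core of the cell cycle element bound through MuvB, was in 1 window, that of SUZ12 (15.2% of all windows). TGGGAA, the core of the sequence bound by RBPJ, was in 1 window, of RBBP7 (24.0% of all windows). The 250 bases before the start are printed for EZH2 and SUZ12, core subunits without and with a called change, and for JARID2, the member with the largest change. Every match to these motifs within these bases is in capitals. The E2F matches of EZH2 and MTF2 lie after the start, so that of EZH2 is not in its printed stretch. That stretch belongs to the first of 2 EZH2 windows, and the second holds no match to any motif searched. PHF19 also has 2 windows, and only its second holds an E2F match. In the second of its 2 windows JARID2 carries the cyclic AMP response element TGACGTCA in 2 places. That motif, present in 1.85% of all windows, was searched after the JARID2 sequence had been seen, and it overlaps none of the others there.
EZH2 promoter, chr7:148884292-148884541, minus strand: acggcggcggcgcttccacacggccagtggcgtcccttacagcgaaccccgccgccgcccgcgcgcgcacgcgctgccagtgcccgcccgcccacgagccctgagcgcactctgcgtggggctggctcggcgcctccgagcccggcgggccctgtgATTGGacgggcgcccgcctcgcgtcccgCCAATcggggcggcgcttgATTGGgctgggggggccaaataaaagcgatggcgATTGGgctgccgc
SUZ12 promoter, chr17:31936757-31937006, plus strand: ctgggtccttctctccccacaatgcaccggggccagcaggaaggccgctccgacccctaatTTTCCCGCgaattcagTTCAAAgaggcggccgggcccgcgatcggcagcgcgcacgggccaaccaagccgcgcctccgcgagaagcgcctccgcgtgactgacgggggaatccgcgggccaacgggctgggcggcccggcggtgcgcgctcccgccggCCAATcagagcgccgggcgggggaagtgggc
JARID2 promoter, chr6:15248605-15248854, plus strand: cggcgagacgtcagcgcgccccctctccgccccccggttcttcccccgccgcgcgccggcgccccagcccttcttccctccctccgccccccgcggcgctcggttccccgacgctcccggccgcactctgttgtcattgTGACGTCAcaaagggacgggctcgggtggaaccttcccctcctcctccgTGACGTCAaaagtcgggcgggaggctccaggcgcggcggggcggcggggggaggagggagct

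The libraries held 15641296 to 17197715 counts each, with 17237 to 17308 genes detected. SPEN went from 187 and 184 CPM (TMM-scaled counts per 1000000, used throughout) in the controls to 107 and 108 CPM in the knockdown, a log2 fold change of -0.78 (knockdown over control). Of the genes that describe the cell line, ESR1 and PGR had 0 to 5 counts in a library, CDH1 had 0 in all 4, and the mesenchymal filament VIM was abundant. Of the 4 tested genes of this list, VIM rose from 3257 ± 2.99 to 5020 ± 55.2 CPM and EGFR from 257 ± 3.73 to 357 ± 3.34 CPM, ERBB2 fell from 89.8 ± 0.0476 to 73.8 ± 4.88 CPM, and CDH2 was not called. Of 11 leukocyte markers, 4 had 0 counts in every library and PTPRC had 4 to 9. The summed level of the list was 36.5 and 40.4 CPM in the controls and 46.8 and 47.7 CPM in the knockdown, mostly from CD68, which rose (log2 fold change 0.31). ITGAM had 0 counts in both controls and 10 and 19 in the knockdown. CD14 went the other way, from 14 and 11 counts to 3 and 7, and was not called (log2 fold change -1.15, adjusted p = 0.0753). LYZ was not called either (log2 fold change 0.16). Of 8 endothelial and fibroblast markers, CDH5 and LUM had 0 or 1 count in a library. DCN and PDGFRA, which mesenchymal-like cells can express, rose, so that the list went from 30.4 and 31.5 to 66.0 and 67.0 CPM. KDR (log2 fold change -0.59) and ACTA2 (-0.11) were not called, and PECAM1 went from 4 and 6 counts to 1 in each knockdown library. In each of these lists 4 genes were tested and 2 were called higher, against 25.1% of all tested genes. ERBB2 was called lower, as were 24.9% of all tested genes. The part of these marker and identity genes in the results on PRC2 was not tested. In bulk RNA, fewer cells of a type and less RNA per cell cannot be told apart.

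PRC2 transcripts did not move as a block. JARID2 and EZH1 rose, PHF19, SUZ12, RBBP7 and RBBP4 fell, and EZH2, EED, MTF2 and PHF1 were not called. In edgeR's quasi-likelihood test at an adjusted p under 0.05, this was 6 of 10 members called, against 50.1% of all tested genes. The 2 that rose stand against 25.1% of all tested genes called higher, and the 4 that fell against 24.9% called lower. The median log2 fold change of the members was -0.029, beside 0.0012 for all tested genes, and the median of its absolute size was 0.17, beside 0.22. Control and knockdown libraries were fully separated in CPM for 9 of the 10 members, against 74.3% of all tested genes. These shares are near the background, so the members as a list did not stand apart from other genes in how often they changed. The 4 calls of JARID2, PHF19, SUZ12 and RBBP7 were made under each alternative that was run, whereas those of EZH1 and RBBP4 were not.

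**Figure D1:**
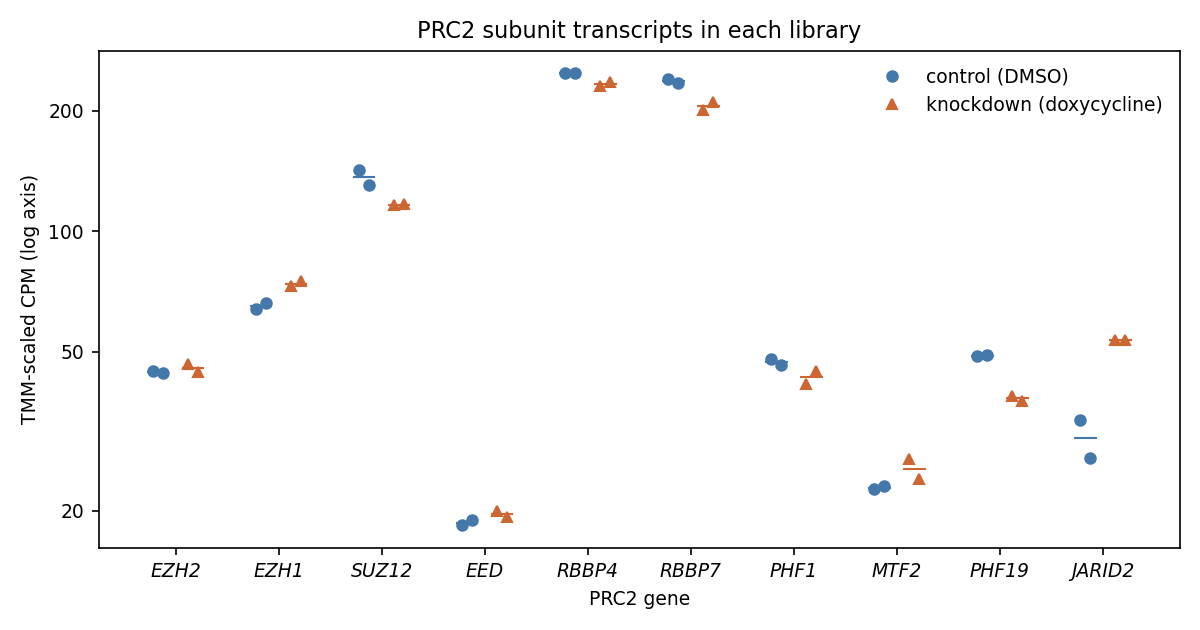
Level of each PRC2 member in each library, as TMM-scaled CPM on a log axis, with circles for the 2 control libraries, triangles for the 2 knockdown libraries and short lines for the group means. JARID2 stands out with both knockdown libraries at 53.4 CPM above controls at 27.2 and 33.7, while the EZH2 libraries of both groups lie between 44.3 and 46.7.

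EZH2, described above as the dominant enzyme of dividing cells, was at 44.8 and 44.3 CPM in the controls. In the knockdown it was at 46.7 and 44.5 CPM. One knockdown library lay between the controls, so the groups overlapped. The log2 fold change was 0.033 (SE 0.052, 95% interval -0.078 to 0.14, adjusted p = 0.632). EZH1, the paralog with weaker methyltransferase activity that persists in non-dividing cells, was at 64.1 and 66.3 CPM in the controls and 72.9 and 75.1 CPM in the knockdown. Both knockdown libraries lay above both controls. EZH1 rose by 13.5% (log2 fold change 0.18, SE 0.048, adjusted p = 0.00535). This call was lost without control replicate 1 (adjusted p = 0.0553) and with DESeq2 (adjusted p = 0.0562), with a log2 fold change of 0.16 and 0.18.

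SUZ12, the scaffold on which the complex is built, was at 142 and 131 CPM in the controls and 116 and 117 CPM in the knockdown. The knockdown libraries were both lower, and the control libraries differed more between themselves than the knockdown libraries did. SUZ12 fell to 85.3% of the control level (log2 fold change -0.23, SE 0.044, adjusted p = 0.000552). Its log2 fold change was -0.17 without control replicate 1 and -0.29 without control replicate 2. SUZ12P1, a partial copy of SUZ12 that could share reads with it, was at 8.94 and 10.02 CPM in the controls and 8.42 and 9.02 CPM in the knockdown and was not called (adjusted p = 0.451). EED, which binds the trimethylated mark, was at 18.4 and 19.0 CPM in the controls and 20.01 and 19.3 CPM in the knockdown. Its groups did not overlap, but the difference was small beside its error (log2 fold change 0.070, SE 0.084, 95% interval -0.11 to 0.25, adjusted p = 0.519).

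RBBP4 and RBBP7 are closely related histone-binding WD40 proteins, shared with other chromatin complexes. RBBP7 was at 240 and 235 CPM in the controls and 201 and 210 CPM in the knockdown. Both knockdown libraries were below both controls, and RBBP7 fell to 86.5% of the control level (log2 fold change -0.21, SE 0.030, adjusted p = 3.11e-05). RBBP4 was at 248 CPM in both controls and at 230 and 236 CPM in the knockdown. RBBP4 fell to 93.9% of the control level, the smallest difference among the called members (log2 fold change -0.090, SE 0.027, adjusted p = 0.0106). Its call was lost without control replicate 1 (adjusted p = 0.0948), control replicate 2 (adjusted p = 0.0592) or knockdown replicate 1 (adjusted p = 0.129), and with DESeq2 (adjusted p = 0.107). RBBP4 has processed pseudogenes and is the member with fractional values in the deposited table, so its share of ambiguous reads is uncertain.

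The 3 Polycomb-like genes differed among themselves. PHF19, whose Tudor domain binds methylated lysine 36 of histone H3, was at 48.8 and 49.1 CPM in the controls and 38.7 and 37.8 CPM in the knockdown. The gap between the groups was many times the distance between libraries of a group. PHF19 fell to 78.1% of the control level (log2 fold change -0.36, SE 0.047, adjusted p = 1.52e-05), the largest fall among the members, and 70.0% of all tested genes had a smaller absolute log2 fold change. PHF1, which also binds methylated lysine 36, was at 47.9 and 46.3 CPM in the controls and 41.5 and 44.8 CPM in the knockdown. The groups did not overlap, and its log2 fold change of -0.13 (SE 0.051, 95% interval -0.23 to -0.018) was just outside the threshold (adjusted p = 0.0509). PHF1 was called lower under 5 alternatives, with adjusted p from 0.0108 to 0.0499, among them leaving out knockdown replicate 2 (log2 fold change -0.18, adjusted p = 0.0396). It was not called under the other 8, where its adjusted p with DESeq2 was 0.354 and without knockdown replicate 1 its log2 fold change was -0.073 (adjusted p = 0.388). MTF2, which anchors PRC2 at CpG islands, was at 22.7 and 23.0 CPM in the controls and 27 and 24.0 CPM in the knockdown. The knockdown libraries were both above the controls but lay far apart from each other, and MTF2 was not called (log2 fold change 0.16, SE 0.076, adjusted p = 0.0981). Without knockdown replicate 2, the lower of them, it was called higher (log2 fold change 0.24, adjusted p = 0.0199), and without knockdown replicate 1 its log2 fold change was 0.070 (adjusted p = 0.613).

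JARID2, a catalytically inactive Jumonji protein that helps bring PRC2 to its targets and stimulates it, had the largest change. Its control counts were 566 and 474 and its knockdown counts 825 and 823, or 33.7 and 27.2 CPM against 53.4 CPM in both knockdown libraries. The controls lay further apart than the libraries of any other member relative to their level, and both were far below the knockdown. JARID2 rose 1.75-fold (log2 fold change 0.81, SE 0.071, adjusted p = 2.24e-07), and 92.7% of all tested genes had a smaller absolute log2 fold change. The log2 fold change was 0.97 without control replicate 1 and 0.66 without control replicate 2. An antisense gene, JARID2-AS1, overlaps the printed stretch before the second JARID2 start. Whether exons of JARID2-AS1 also overlap exons of JARID2 was not examined, and the sources used here do not say whether counting used the strand. It is therefore not known whether reads from JARID2-AS1 were counted to JARID2.

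**Figure D2:**
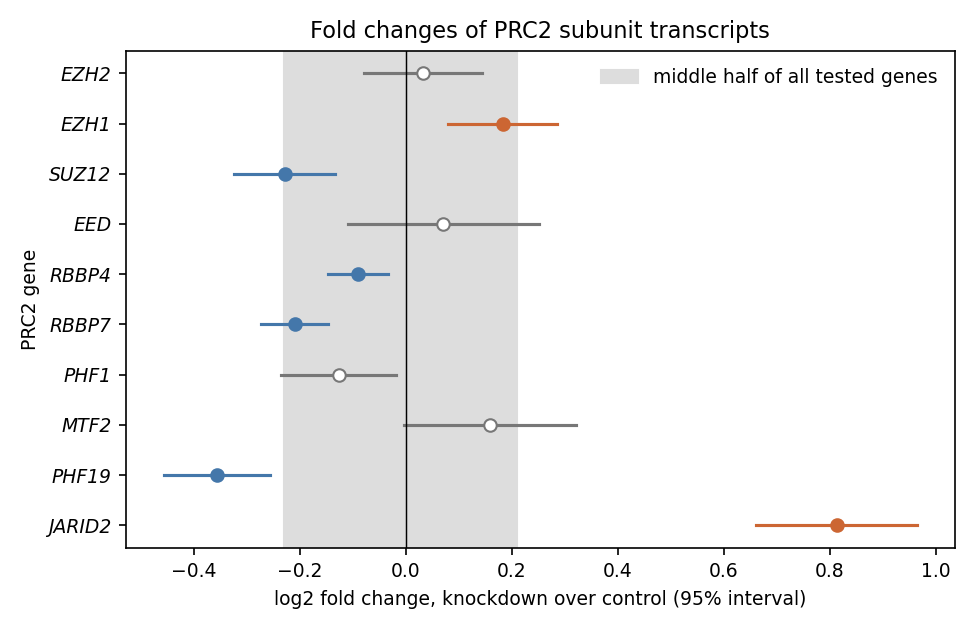
Log2 fold change, knockdown over control, of each PRC2 member with its 95% interval, filled where the adjusted p was under 0.05 (orange higher, blue lower) and open where it was not. The grey band runs from the lower to the upper quartile of all tested genes, -0.23 to 0.21, and JARID2 (0.81) and PHF19 (-0.36) lie outside it with their whole intervals.

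Levels can be compared between genes only per length. On the scale of CPM per kilobase of merged coding-transcript exons (GENCODE release 29), RBBP7 was highest in the controls at 87.2 ± 1.22 (SD, n = 2), followed by RBBP4 at 30.9 ± 0.00238 and SUZ12 at 30.4 ± 1.78, whose libraries overlapped. PHF1 followed at 20.2 ± 0.487, then EZH2 at 14.6 ± 0.118, EZH1 at 14.0 ± 0.334 and PHF19 at 10.3 ± 0.0467. MTF2 (5.54 ± 0.0677), JARID2 (5.18 ± 0.789) and EED (5.15 ± 0.109) were lowest and overlapped with their neighbours in this order. In the knockdown, JARID2 per kilobase reached 9.08 ± 0.00141 and stood above PHF19 at 8.03 ± 0.132. Transcript lengths were not measured here, and the order of these levels depends on them. With the median transcript length in place of merged exons, RBBP4 stood above RBBP7 (143 against 117 CPM per kilobase in the controls) and EZH1 above EZH2 (26.1 against 17.5). With that length PHF19 also stayed above JARID2 in the knockdown (10.01 ± 0.164 against 9.41 ± 0.00146), and EED was no longer among the lowest (10.7 ± 0.226 in the controls).

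Changes in the ratio of 2 genes do not depend on their lengths, and the pairs EZH2 and EZH1, and RBBP4 and RBBP7, were compared this way. EZH2 over EZH1, per kilobase, was 1.06 and 1.01 in the controls against 0.971 and 0.899 after knockdown. Both knockdown libraries lay below both controls, a log2 difference of -0.15 (exact permutation test over libraries, two-sided, p = 0.333). With 2 libraries against 2, that p is the smallest this test can give, and it cannot reach 0.05. RBBP4 over RBBP7 went the other way within its pair, from 0.351 and 0.358 to 0.389 and 0.381, a log2 difference of 0.12 (exact permutation p = 0.333).

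Among the Polycomb-like genes, PHF19 made up 28.2% and 28.8% of their summed level per kilobase in the controls against 25.01% and 24.1% after knockdown. MTF2 made up 15.1% and 15.6% in the controls against 20.1% and 17.6% after knockdown. The share of PHF1 overlapped between the groups, at 56.7% and 55.6% in the controls against 54.8% and 58.3% after knockdown. The exact permutation p was 0.333 for PHF19 and MTF2 and 1 for PHF1. The ratio of JARID2 to the sum of the 3 Polycomb-like genes, added after the values were seen, was 0.158 and 0.129 in the controls against 0.280 and 0.275 after knockdown. Its log2 difference was 0.96 (exact permutation p = 0.333). Shares and ratios to a sum depend on the lengths used, and with the median transcript length this difference was 0.97.

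**Figure D3:**
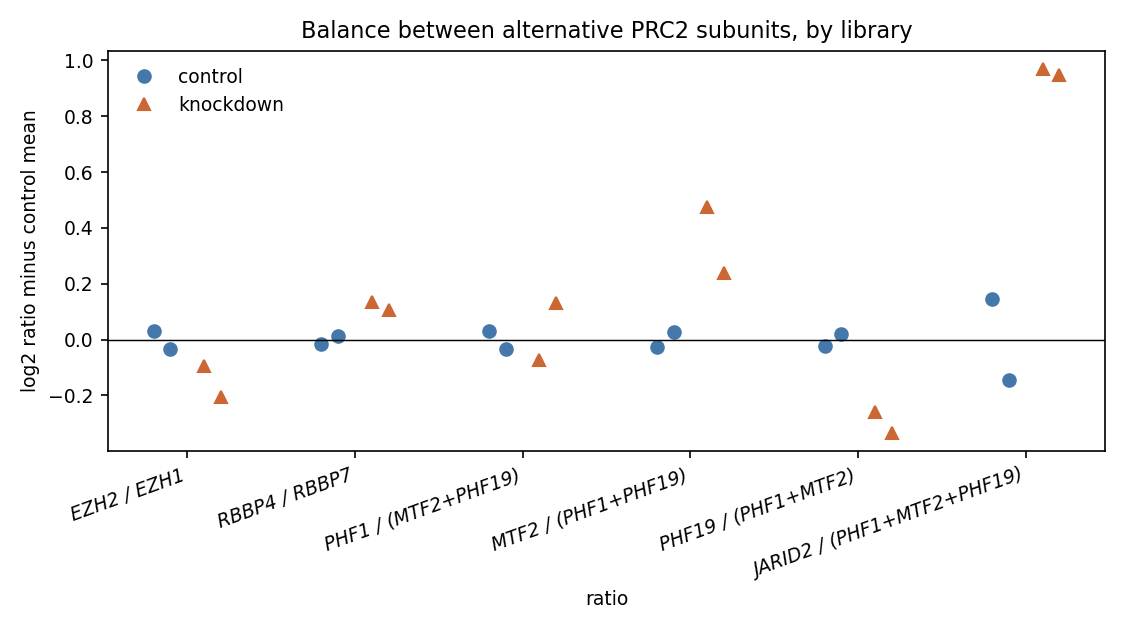
Log2 ratio between alternative PRC2 subunits in each library, with the mean of the 2 controls set to 0 for each ratio, circles for controls and triangles for the knockdown. The 2 groups are apart for every ratio except PHF1 over the other Polycomb-like genes. Each ratio that is apart had an exact permutation p of 0.333, the smallest this test can give. As single genes, 74.3% of all tested genes were fully separated in CPM. The ratio with JARID2, the member with the largest change, was added after the values were seen and is furthest from 0.

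Other PRC2 partners were measured as well. Of 5 such genes, AEBP2, C17orf96 and LCOR rose, LCORL fell and C10orf12 was not called. The 3 that rose and the 1 that fell stand against 25.1% of all tested genes called higher and 24.9% called lower. AEBP2, the zinc finger partner of JARID2, went from 28.0 and 30.6 CPM to 34.6 and 36.1 CPM (log2 fold change 0.27, adjusted p = 0.00177). That call was lost without control replicate 1 (adjusted p = 0.0583) and with DESeq2 (adjusted p = 0.0542), so of the JARID2 and AEBP2 pair JARID2 changed more and held under each alternative. C17orf96, the older symbol of EPOP, which joins the Polycomb-like form and links it to Elongin, rose by 0.32 on the log2 scale (adjusted p = 0.00114). LCOR rose 1.74-fold, from 41.3 ± 0.516 to 71.9 ± 1.49 CPM (adjusted p = 1.29e-09). C10orf12 is now annotated as part of the LCOR locus, whose long product PALI1 is a PRC2 partner, and it was at 28.5 ± 0.538 and 30.4 ± 2.29 CPM (log2 fold change 0.093, adjusted p = 0.257). The sources used here do not say how reads were divided between the overlapping LCOR and C10orf12 models. LCORL, the relative of LCOR that encodes PALI2, fell by 0.41 (adjusted p = 2.47e-05).

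RBBP4 and RBBP7 also serve other complexes. The counts of their genes stand against 25.1% of all tested genes called higher and 24.9% called lower. Of 2 CAF-1 genes, which load histones behind replication forks, both fell, CHAF1A by 0.18 and CHAF1B by 0.24 on the log2 scale. CHAF1A was not called without control replicate 1 (adjusted p = 0.0998), control replicate 2 (0.0869) or knockdown replicate 1 (0.0793), and neither was called by DESeq2. Of 7 SIN3 corepressor genes, 3 fell and HDAC2 rose (0.13), and the falls of SAP18 (-0.48), SUDS3 (-0.19) and HDAC1 (-0.15) became 1 without control replicate 2 and with DESeq2. HDAC1 was not called under 7 of the 13 alternatives, and HDAC2 was not called without control replicate 1 (adjusted p = 0.0538). Of 9 NuRD remodeller genes, 3 rose and 3 fell. The ATPase CHD4 rose by 0.17 and its paralog CHD3 fell by 0.34, GATAD2A rose by 0.19 and MTA3 fell by 0.34. Of 7 genes of MuvB, NURF and HAT1, HAT1 (-0.41), LIN9 (-0.40) and LIN52 (-0.28) fell and 4 were not called. The last of these was called in none of the fits without control replicate 1, control replicate 2 or knockdown replicate 2, where its adjusted p was 0.206, 0.0737 and 0.217, nor with DESeq2 (0.213) or without the low-count filter (0.0838). The largest adjusted p of the CAF-1, SIN3, NuRD, MuvB, NURF and HAT1 genes named with all 4 libraries was 0.0396, for HDAC1.

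The enzymes that work against PRC2 on chromatin were examined next. The H3K27 demethylase KDM6B rose by 0.19 (adjusted p = 0.00831, but 0.147 without control replicate 2), while its relative KDM6A was at 27.6 ± 0.190 and 28.3 ± 1.42 CPM (log2 fold change 0.033, adjusted p = 0.710). Of the acetyltransferases of the same lysine, CREBBP fell from 239 ± 3.56 to 195 ± 2.55 CPM (log2 fold change -0.29, adjusted p = 6.13e-07) and EP300 was at 168 ± 6.33 and 164 ± 6.72 CPM (adjusted p = 0.419). Among 8 tested genes of H3K36 methyltransferases, whose mark hinders PRC2, and of the H2A deubiquitinase complex, 6 fell and 0 rose. Over all tested genes, 24.9% were called lower and 25.1% higher. ASH1L fell most, from 221 ± 1.63 to 134 ± 2.27 CPM (log2 fold change -0.72, adjusted p = 1.01e-10), followed among those named by SETD2 (-0.18), NSD1 (-0.15) and WHSC1 (-0.13). The count of 6 became 3 without control replicate 1, where WHSC1 had an adjusted p of 0.0593, and 4 without control replicate 2. ASXL3 had 0 counts in every library.

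Of 24 genes often used as examples of H3K27me3 targets, 5 had 0 counts in every library (CDH1, GATA4, NEUROG1, OLIG2 and WNT1). Another 12 had enough counts to be tested, of which 4 rose, 1 fell and 7 were not called. Over all tested genes, 25.1% were called higher and 24.9% lower. SLIT2, a guidance ligand, had control counts of 297 and 313 and knockdown counts of 563 and 553, a 2.03-fold rise (adjusted p = 6.74e-09). The endoderm factor GATA6 rose 1.21-fold from 46.0 ± 0.359 CPM (adjusted p = 0.00011). CNR1, the cannabinoid receptor, rose by 0.11 with an adjusted p of 0.0465, a call that held under 1 of the 13 alternatives, and it was named after its value was seen. CCND2, a D-type cyclin, fell by 0.18, a call lost without control replicate 2 (adjusted p = 0.109) or knockdown replicate 2 (adjusted p = 0.135) and with DESeq2 (adjusted p = 0.167). The histone mark itself was not measured. Of 4 long noncoding RNAs described as binding PRC2, KCNQ1OT1 rose by 0.18 (adjusted p = 0.000239, but 0.0529 and 0.0514 without control replicate 1 and 2), HOTAIR was at 4.45 ± 0.453 and 3.95 ± 0.269 CPM (adjusted p = 0.465), CDKN2B-AS1 had a log2 fold change of 0.33 (adjusted p = 0.0833), and MEG3 had 5 to 11 counts in a library.

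**Figure D4:**
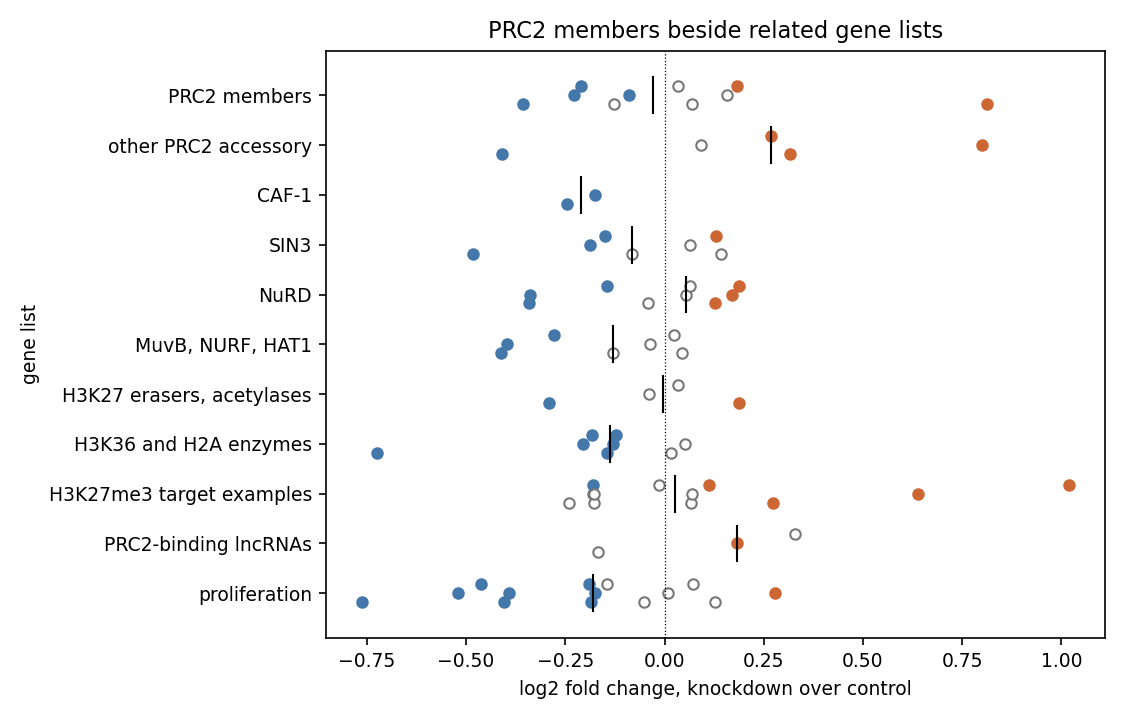
Log2 fold change, knockdown over control, of each tested gene in the PRC2 members and related lists, filled orange for called higher, filled blue for called lower and open for not called, with a bar at each list's median. The proliferation genes reach from -0.76 to 0.28, and the PRC2 members from -0.36 to 0.81.

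Proliferation genes moved in the same libraries. Of 14 such genes, 8 fell, RRM2 rose and 5 were not called, around a median of -0.18 on the log2 scale. The count that fell was 6 with DESeq2, 7 without the low-count filter and 9 with upper-quartile scaling. Among all tested genes, 24.9% were called lower and 25.1% higher. The summed level of the 14 went from 2409 and 2402 CPM in the controls to 1788 and 1778 CPM in the knockdown. Most of that drop came from TOP2A (906 ± 1.81 to 534 ± 9.30 CPM) and MKI67 (633 ± 13.7 to 441 ± 6.65 CPM). CCNA2 (log2 fold change 0.0090), PCNA (-0.052), MCM2 (0.072), E2F2 (-0.15) and E2F3 (0.13) were not called. TOP2A fell by 0.76, MKI67 by 0.52, BUB1 by 0.39 and AURKA by 0.40. EZH2, which is commonly abundant together with these markers in tumours, had a 95% interval of -0.078 to 0.14 in the same fit. The part of proliferation in the falls of SUZ12, RBBP4, RBBP7 and PHF19 was not tested.

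Single genes most like 2 of the members were sought by distance between log2 CPM profiles over the 4 libraries, each centred on its mean. The genes nearest to EZH2 were ESYT2, PHKA1 and LPHN2, at distances of 0.0045 to 0.0056. A total of 1505 genes lay within 0.1 of EZH2, as a flat profile is common. The genes nearest to JARID2 were SPOCD1, TNIP3 and NALCN-AS1, at 0.042 to 0.060, with 5 genes within 0.1. SPOCD1 (adjusted p = 0.0197) and TNIP3 (adjusted p = 0.000153) were called higher, and NALCN-AS1 was not called (adjusted p = 0.104). Over 4 libraries such likeness is a description of these profiles.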

How the data were processed

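RNA was sequenced from 4 libraries of SUM159 cells, 2 controls and 2 with SPEN knockdown, grouped by their titles. The labels' protocols describe polyadenylated RNA and a standard Illumina library. The authors' deposited values are estimated counts for each gene symbol, without normalisation. Per the submitters' processing notes, reads were aligned with STAR and the build was GRCh37. The counting program, annotation, strand and handling of ambiguous reads were not given in the sources used here. Fractional values (tolerance 0.01) occurred in 591 of 23394 genes, and every value was rounded. Columns were matched to samples by name.

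Groups were compared by the quasi-likelihood test of edgeR 4.0.16 (R 4.3.3, two-sided), with TMM scaling, filterByExpr (minimum count 10), group as the single term, and Benjamini-Hochberg adjustment over all 13915 tested genes at 0.05. Every adjusted p is from this test unless another tool is named. Standard errors and 95% intervals of log2 fold changes are those implied by the test's p. The test was also run on simulated data with 200 changed genes. Those data used a single common spread taken from these same libraries. They cannot show error rates where the spread differs between genes or between separate cultures. Libraries of a group varied little (biological coefficient of variation 2.69%), and small differences passed. Nothing says that replicates came from separate cultures, so p-values reflect only the spread of these libraries, and that spread may be technical. The chi-square per gene between libraries was 2.05 in the controls and 1.73 in the knockdown, above counting noise.

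The members, gene lists and tests were chosen with earlier results of these data known. All members were named; from each list, up to 4 called genes with the smallest adjusted p, and every gene of lists of 4 or fewer, were named. The values of 1 gene that this rule selects are not reported here. Alternatives were DESeq2 1.42.0, limma-voom (limma 3.58.1), scaling by RLE, upper quartile or library size alone, all genes without a filter, a filter of 1 CPM in 2 libraries, a replicate block, each library left out, and an adjusted p under 0.01. The JARID2 ratio, other transcript lengths and 1 promoter motif were added after the data were seen. Transcript lengths came from GENCODE release 29 (GRCh38) and promoters from RefSeq (GRCh38.p14), which are not the build of the counts.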

Additional observations from a re-analysis of the deposited data

How the results depend on the processing

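JARID2, PHF19, SUZ12 and RBBP7 kept their direction and their call under all 13 alternatives. Of the members, 2 were called higher; DESeq2 and the fit without control replicate 1 each called 1, and the fits that leave out a library gave 1 to 3. Of the members, 4 were called lower, and the fits that leave out a library gave 3 to 5. Over all tested genes, DESeq2 called 2434 higher and 2159 lower in place of 3499 and 3471, and leaving out a library gave 2607 to 3220 higher and 2430 to 3122 lower. With scaling by library size, 2966 were higher and 4101 lower. Scaling by library size turned the log2 fold change of EZH2 to -0.013 and of KDM6A to -0.012. Leaving out a library gave -0.0035 to 0.068 for EZH2, -0.017 to 0.082 for KDM6A and -0.081 to 0.00039 for EP300. None of these 3 genes was called in any of these fits. The cause of these shifts was not tested.

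The replicate numbers are not stated to mark shared cultures or days. Deviations from the group means correlated by 0.19 between same-numbered libraries. With the replicate number as a block, 3609 genes were called higher and 3602 lower, and the same 2 and 4 members.

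Leaving out a library gave a log2 difference of -0.21 to -0.095 for EZH2 over EZH1, 0.11 to 0.13 for RBBP4 over RBBP7, -0.074 to 0.13 for PHF1, 0.24 to 0.47 for MTF2 and -0.33 to -0.26 for PHF19 over the other Polycomb-like genes, and 0.81 to 1.10 for JARID2 over their sum. Depth limits EED and MTF2, with 297 to 417 counts in a library, more than the other members.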

Other observations

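The sequence GAAAGAA has an earlier link to these same fold changes, for which it was picked. It was counted in the 3′ UTRs of GENCODE coding transcripts of the members. SUZ12, RBBP4 and JARID2 had 1 site each, RBBP7 had 2, and the other 6 members had 0. Of these 4 genes, SUZ12, RBBP4 and RBBP7 fell and JARID2 rose, while PHF19, which fell, had none. Among all tested genes with a searched 3′ UTR, 26.6% had a site, beside 4 of the 10 members. The share was 34.7% of those called lower, 23.3% of those called higher and 24.0% of those not called. As the sequence was picked for this link, these shares restate it and are no separate evidence. The length of the 3′ UTRs was not taken into account. The part of GAAAGAA in the falls of PRC2 members was not tested.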
